A study of Mus musculus with 14 samples.

Results

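The genes described here are 47 interferon genes out of 36870 gene names on the array: 30 genes of the kind induced mainly by type I interferon, 13 of the kind induced mainly by interferon-gamma, and the 4 chains of the interferon receptors. They were chosen by name, and every probe carrying one of these names was taken, which gave 79 of 56605 probes. CD4+ T-cells of 14 mice gave the total RNA, 1 mouse per one-colour array, with 7 mice labelled Roquin san/+ and 7 labelled wild-type. Roquin san/+ mice carry one sanroque allele of Roquin, an RNA-binding protein that shortens the life of many immune transcripts, and the series title presents the strain as a model of human T follicular helper cell lymphoma. Age, sex, strain background, treatment and presence of lymphoma were not stated in the labels, and the labels do not say whether the mice of a genotype were littermates. An expression probe does not read the sanroque allele, so no gene on the array checks the genotype labels.

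Interferons are secreted proteins that warn cells of infection. Type I interferons bind the receptor chains Ifnar1 and Ifnar2, and through factors that include Stat2 and Irf9 they switch on antiviral genes whose promoters hold the interferon-stimulated response element. Interferon-gamma, which T-cells themselves secrete, binds Ifngr1 and Ifngr2, and acts at gamma-activated sites, inducing Irf1 and the guanylate-binding and immunity-related GTPases that attack vacuoles holding microbes. Many genes respond in part to both.

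The promoters of these genes were searched for both motifs. RefSeq start sites on GRCm38.p6 were found for 35 of the 47 genes. The window searched ran from 250 bases before the start to 50 after it, on both strands, for the core of the response element (GAAANNGAAA) and for the gamma-activated site (TTCNNNGAA). The core was present at 19 of these 35 genes (54.3%) and at 3.99% of all 27025 genes of the table, and the gamma-activated site at 12 (34.3%) and 9.55%. By kind, the core was found at 11 of 21 type I-type genes, at 8 of 10 interferon-gamma-type genes and at none of the 4 receptor genes. A match of letters is a description and not a bound site. No start was found for the GTPase genes Iigp1, Gbp4, Gbp6, Mx1 and Mx2, among others, so their promoters were not searched. The 100 bases before the start are shown for the GTPase genes with a start found, Irf1, Socs1, Isg15 and Oas1a, because most of the results turn on genes of these families. Each reads toward the start, and capitals mark the matches.
Gbp3 (chr3:142559944-142560043, plus strand): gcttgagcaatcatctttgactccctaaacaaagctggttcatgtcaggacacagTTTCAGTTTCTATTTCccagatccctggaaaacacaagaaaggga
Gbp2 (chr3:142620563-142620662, plus strand): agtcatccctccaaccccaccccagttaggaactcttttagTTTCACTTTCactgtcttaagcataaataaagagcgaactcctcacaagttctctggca
Gbp7 (chr3:142530236-142530335, plus strand): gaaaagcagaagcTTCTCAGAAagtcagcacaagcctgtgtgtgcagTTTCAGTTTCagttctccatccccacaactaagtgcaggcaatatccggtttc
Igtp (chr11:58199456-58199555, plus strand): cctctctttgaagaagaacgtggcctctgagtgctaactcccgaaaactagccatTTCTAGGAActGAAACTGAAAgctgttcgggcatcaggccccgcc
Irgm2 (chr11:58214877-58214976, plus strand): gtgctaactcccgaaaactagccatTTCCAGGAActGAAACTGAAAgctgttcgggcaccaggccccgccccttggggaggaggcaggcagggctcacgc
Irgm1 (chr11:48871421-48871520, minus strand): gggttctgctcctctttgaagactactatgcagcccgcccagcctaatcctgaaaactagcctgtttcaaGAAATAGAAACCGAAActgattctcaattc
Irf1 (chr11:53769914-53770013, plus strand): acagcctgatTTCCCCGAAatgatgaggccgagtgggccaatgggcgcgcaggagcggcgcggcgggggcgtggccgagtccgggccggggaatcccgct
Socs1 (chr16:10785537-10785636, minus strand): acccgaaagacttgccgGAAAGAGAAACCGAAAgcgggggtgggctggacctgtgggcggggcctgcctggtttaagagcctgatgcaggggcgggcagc
Isg15 (chr4:156200819-156200918, minus strand): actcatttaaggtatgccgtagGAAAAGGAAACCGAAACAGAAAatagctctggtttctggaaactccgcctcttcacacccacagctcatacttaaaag
Oas1a (chr5:120907526-120907625, minus strand): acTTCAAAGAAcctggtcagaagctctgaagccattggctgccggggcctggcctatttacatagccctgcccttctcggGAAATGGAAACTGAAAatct
Gbp3, Irgm1, Socs1 and Oas1a held 2 overlapping cores in a run of 16 bases, and Isg15 held 3 in a run of 22. Igtp and Irgm2, both on chromosome 11, shared a gamma-activated site followed by a core, and Irf1 held a gamma-activated site alone. Gbp3 and Irf1 each had another annotated start whose window held neither motif.

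Several arrays stood apart before any comparison. On replicate G of Roquin san/+ and replicate E of wild-type the spots lay 2 rows away from their probe names, so they were moved back, and their detection calls could not be trusted. The other 12 arrays, 6 per genotype, needed no move, and on them all 47 genes were well above background on every array. Replicate C of Roquin san/+ was dim, with a 75th percentile of signal of 107 against 419 to 996 on the other well-placed arrays. Genotype and slide were unevenly crossed, slide 1 holding 5 of the Roquin san/+ arrays and slide 2 holding 5 of the wild-type arrays, each beside 2 of the other genotype. The T-cell genes Cd3e, Cd3g, Cd4 and Cd28 were well above background on all 12 well-placed arrays, but markers of other cells were present too. Cd79b, Lyz2 and S100a8 were detected on all 12, and their levels were highest on replicate F of Roquin san/+. In a bulk sample, fewer cells of a type and less RNA per cell cannot be told apart.

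Levels are log2 processed signals from which each array's 75th percentile over detected probes was subtracted, so 0 marks that percentile. A gene with several probes is represented by its brightest tested probe, and a difference is always Roquin san/+ minus wild-type. No interferon gene passed limma at an adjusted p below 0.05, and the background was 0% of 12866 probes with 14 arrays and 0% of 28966 probes with the 12 well-placed arrays. At an unadjusted p below 0.05, 6 of 51 tested interferon probes (11.8%) were higher in Roquin san/+ with 14 arrays, against 3.26% of all probes, and 0 were lower, against 0.801%. Of those 6 probes 3, for Mx1 and the dimmer probes of Iigp1 and Zbp1, had passed the filter through the Roquin san/+ arrays alone, so this count is a description only. With 12 arrays the counts were 7 of 72 (9.72%) higher, against 5.8%, and 0 lower, against 1.38%. These probes belonged to Gbp2, Gbp3, Iigp1, Mx1 and Zbp1 with 14 arrays, and to Gbp3, Ifi44, Iigp1, Irgm1, Mx1 and Zbp1 with 12. For no interferon probe did the genotypes separate completely in that direction, against 0.0311% of probes with 14 arrays and 0.728% with 12.

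The differences leaned toward Roquin san/+ without passing the test. On the 12 well-placed arrays 38 of 47 genes were higher, with a median difference of 0.20 against 0.04 over all probes, of which 54.3% were higher. All 13 interferon-gamma-type genes were higher, with a median of 0.27. Of the 30 type I-type genes 21 were higher, with a median of 0.15, and all 4 receptors were, with a median of 0.18. With 14 arrays 38 genes were tested and 34 were higher, but 11 of the 51 tested probes had passed the filter through the Roquin san/+ arrays alone, so this count too is a description. Of these 38 genes, 16 were higher within slide 1, with a median of -0.14, and 35 within slide 2, with a median of 0.52. Scaling on all probes moved the median of all probes to -0.17, and then 10 of 22 type I-type and 11 of 12 interferon-gamma-type genes were higher, while 19 and 12 lay above that median. Without replicates C and F of Roquin san/+, a choice made after seeing the data, 40 of 47 genes were higher on the 10 remaining well-placed arrays. Without replicate C of wild-type 34 of 47 genes were higher on the remaining well-placed arrays, with a median of 0.12. Of these 47 genes, 30 then lay above the median of all probes, 0.03. The interferon-gamma-type median dropped from 0.27 to 0.15, with 11 of 13 higher and 9 above the median of all probes.

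**Figure D1:**
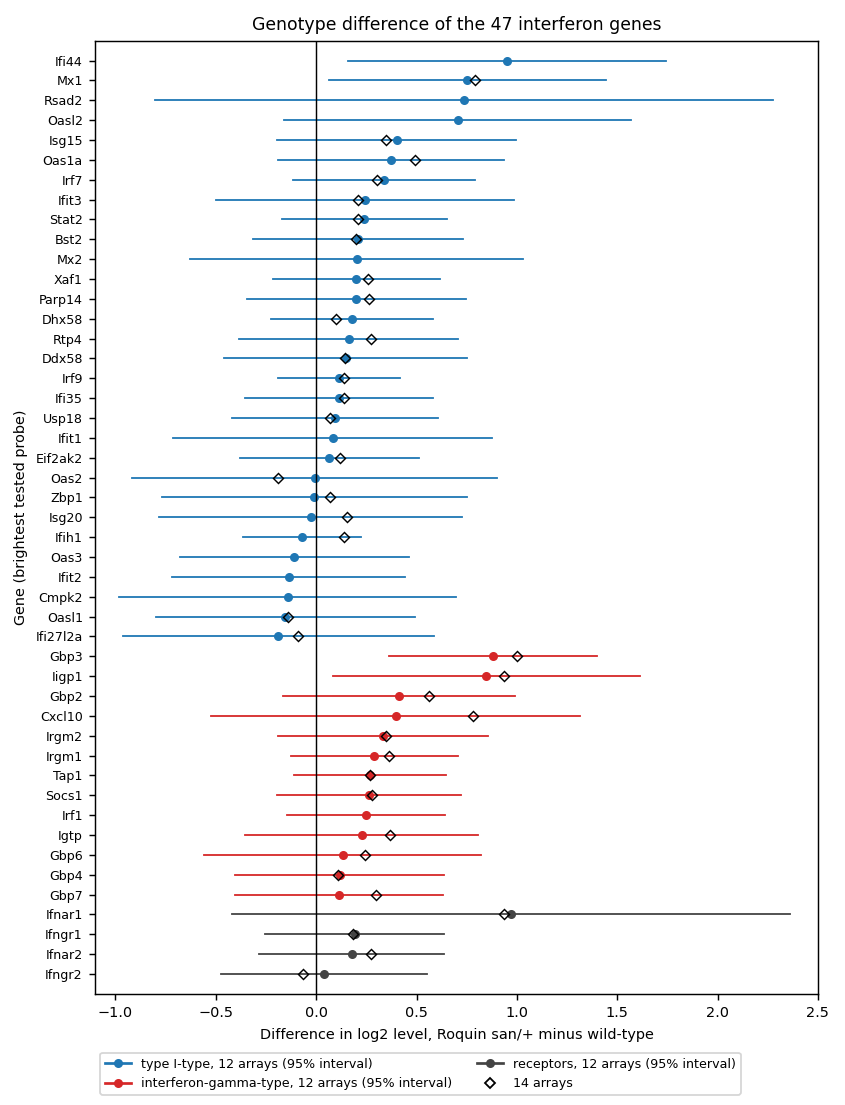
Difference in log2 level, Roquin san/+ minus wild-type, of the 47 interferon genes (y axis) in the 12 well-placed arrays, with the 95% interval of limma (filled points), and in 14 arrays (open diamonds, 38 genes). All 13 interferon-gamma-type genes lie to the right of 0, while most intervals cross it.

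The guanylate-binding proteins are large GTPases that interferon-gamma induces strongly. Gbp3 levels ran from -1.84 through a median of -1.59 to -0.73 in Roquin san/+ and from -3.35 through -2.52 to -1.64 in wild-type. All 7 Roquin san/+ arrays lay above the wild-type median, 4 lay above every wild-type array, and only replicate B of wild-type reached into the Roquin san/+ range. Of the brightest probes Gbp3 had the lowest limma p in both fits: with 14 arrays the means were -1.41 ± 0.39 and -2.41 ± 0.54 (SD, n = 7 each), a difference of 0.999 (SE 0.24, 95% interval 0.48 to 1.51), a fold of 2. The limma adjusted p over all probes was 0.959. The two-sided exact permutation p was 0.00233, where 0.000583 is the smallest that 7 against 7 allows. On the 12 well-placed arrays the Gbp3 difference was 0.88 (SE 0.24, limma adjusted p = 0.647). It was 1.24 within slide 1 and 0.68 within slide 2, and 0.96 with slide as a block. The Gbp3 probe lies at chr3:142236072-142236131 on mm9, as the array's annotation places it.

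Gbp2 levels ran from -1.82 through -1.15 to -0.62 in Roquin san/+ and from -2.85 through -1.47 to -1.30 in wild-type. The ranges overlapped, with 4 Roquin san/+ arrays above every wild-type array. The Gbp2 difference was 0.56 (SE 0.25, limma adjusted p = 0.959; exact permutation p = 0.0443). It was 0.07 within slide 1 and 0.98 within slide 2, and on the 12 well-placed arrays it was 0.41 (SE 0.27). Gbp4, Gbp6 and Gbp7 differed by 0.11, 0.24 and 0.30 with exact permutation p from 0.255 to 0.674. Without wild-type replicate C Gbp4 was -0.06 and Gbp6 0.05, and without replicate C of Roquin san/+ Gbp7 was 0.17. The Gbp7 probe passed the 14-array filter through Roquin san/+ alone, and gave 0.11 on the 12 well-placed arrays. The GTPases of a family are alike in sequence, and cross-hybridisation between their probes was not tested.

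The immunity-related GTPases act on the same vacuoles. Iigp1 levels ran from -1.81 through -0.68 to -0.10 in Roquin san/+ and from -3.16 through -1.55 to -0.98 in wild-type. Here 5 of 7 Roquin san/+ arrays lay above every wild-type array, replicates B and F lay within the wild-type range, and the lowest wild-type value was replicate C. The Iigp1 difference was 0.93 (SE 0.33, 1.91-fold; limma adjusted p = 0.959; exact permutation p = 0.0181). A second, dimmer Iigp1 probe, which passed the 14-array filter through Roquin san/+ alone, gave 1.21 on the 12 well-placed arrays (SE 0.38, limma adjusted p = 0.647). The brighter probe gave 0.83 within slide 1 and 1.05 within slide 2, and 0.85 (SE 0.35, limma adjusted p = 0.647) on the 12 well-placed arrays.

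Irgm1, a regulator of these GTPases, ranged from -1.49 through -0.80 to -0.46 in Roquin san/+ and from -1.79 through -1.14 to -0.98 in wild-type. Of the Roquin san/+ arrays 4 of 7 exceeded every wild-type array, yet replicate E of Roquin san/+ lay below 5 wild-type arrays. The Irgm1 difference was 0.36 (SE 0.18, exact permutation p = 0.074). Its other probes tested with 14 arrays gave 0.20 and 0.33. The probe at 0.20 passed that filter through Roquin san/+ alone, and gave 0.04 on the 12 well-placed arrays. A dim Irgm1 probe of another transcript gave 1.22 on 12 arrays (limma adjusted p = 0.647; exact permutation p = 0.0281), or 0.73 without replicate C of Roquin san/+. Irgm2 and Igtp, whose promoters share both motifs, differed by 0.35 and 0.37 (exact permutation p = 0.121 and 0.168), and by 0.17 and 0.19 without wild-type replicate C.

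Among the other interferon-gamma-type genes, the chemokine Cxcl10, which draws activated T-cells, spanned a wide range. Its levels ran from -4.83 through -3.89 to -1.83 in Roquin san/+ and from -5.43 through -4.68 to -3.09 in wild-type. The highest value belonged to the moved replicate G of Roquin san/+, and the Cxcl10 difference of 0.78 (SE 0.46, exact permutation p = 0.151) was 0.47 without it. This probe passed the 14-array filter through Roquin san/+ alone, and on the 12 well-placed arrays the Cxcl10 difference was 0.40 (SE 0.43). Irf1, the transcription factor that carries part of the interferon-gamma response, had no value for its bright probe on the moved arrays. On the 12 well-placed arrays Irf1 ran from 3.14 through 3.44 to 3.58 in Roquin san/+ and from 2.48 through 3.23 to 3.47 in wild-type. Wild-type replicate C was the low Irf1 value, and the difference of 0.25 (SE 0.18, exact permutation p = 0.119) was 0.11 without that array. Tap1, the peptide transporter of antigen presentation, and Socs1, the feedback inhibitor of the receptors, differed by 0.27 and 0.28 (exact permutation p = 0.118 and 0.258), and by 0.14 and 0.09 without wild-type replicate C.

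**Figure D2:**
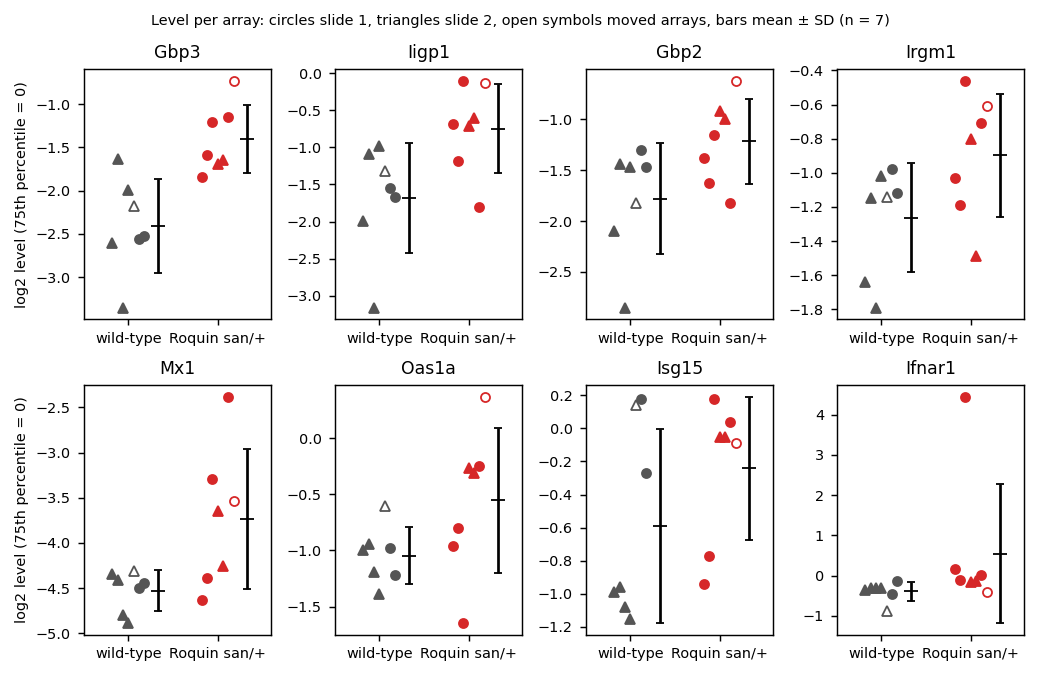
Log2 level (y axis, 0 at each array's 75th percentile) of 8 interferon genes per array, with circles for slide 1, triangles for slide 2, open symbols for the 2 moved arrays and bars for the mean ± SD (n = 7). Gbp3 shows 4 Roquin san/+ arrays above every wild-type array, and Ifnar1 shows the single high array, replicate C of Roquin san/+ at 4.45.

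Of the type I-type genes, each read by its brightest probe, the antiviral GTPase Mx1 had the lowest limma p with 14 arrays. Mx1 levels ran from -4.63 through -3.65 to -2.38 in Roquin san/+ and from -4.89 through -4.44 to -4.31 in wild-type. The wild-type arrays were tightly grouped and 5 Roquin san/+ arrays lay above all of them, with replicate F the highest. The Mx1 means were -3.73 ± 0.77 and -4.53 ± 0.23 (SD, n = 7 each), a difference of 0.79 (SE 0.28, 1.73-fold; limma adjusted p = 0.959). This probe passed the 14-array filter through Roquin san/+ alone, and on the 12 well-placed arrays, where every array detected it, the difference was 0.75 (SE 0.32, limma adjusted p = 0.647). With 14 arrays it was 0.57 without replicate F, 0.83 within slide 1 and 0.60 within slide 2. A dimmer Mx1 probe gave 0.43 on 12 arrays (SE 0.48).

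Oas1a makes the oligoadenylates that activate RNase L. It ran from -1.65 through -0.31 to 0.37 in Roquin san/+ and from -1.39 through -0.9998 to -0.60 in wild-type. Roquin san/+ held both the highest Oas1a values, 4 arrays above all wild-type, and the lowest, on the dim replicate C. The Oas1a difference was 0.49 (SE 0.25, exact permutation p = 0.0804), and 0.44 and 0.74 within the slides. Without the moved replicate G of Roquin san/+, which held the highest value, the difference was 0.34. On the 12 well-placed arrays the Oas1a difference was 0.37 (SE 0.26).

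Ifi44, an antiviral gene that passed the filter only on the 12 well-placed arrays, ran from -4.27 through -3.72 to -2.42 in Roquin san/+ and from -5.38 through -4.71 to -3.47 in wild-type. All 6 Roquin san/+ arrays lay above the wild-type median, while both wild-type arrays of slide 1 lay within the Roquin san/+ range. The Ifi44 difference was 0.95 (SE 0.37, limma adjusted p = 0.647; exact permutation p = 0.0368). It was 0.17 within slide 1 and 1.34 within slide 2. Oasl2, Rsad2 and Mx2 differed on the same arrays by 0.71, 0.74 and 0.20 (exact permutation p = 0.141, 0.429 and 0.649). For Rsad2, which encodes the antiviral enzyme viperin, 1 array set the value: replicate F of Roquin san/+ stood at 0.20 against a Roquin san/+ median of -3.16, and without it the difference was 0.08.

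The regulators of the type I response gave smaller values. Irf7, the factor that amplifies type I interferon, ran from 0.63 through 0.77 to 1.20 in Roquin san/+ and from -0.02 through 0.45 to 1.09 in wild-type. The Irf7 difference was 0.30 (SE 0.18, exact permutation p = 0.112), while a dimmer probe gave -0.02 on the 12 well-placed arrays. Stat2 and Irf9, which act at the response element, differed by 0.21 and 0.14 (exact permutation p = 0.281 and 0.221), and scaling on all probes turned Irf9 to -0.034. Stat2 was 0.10 without replicate F of Roquin san/+. On the 12 well-placed arrays a dimmer Irf9 probe gave 0.03. A dimmer Stat2 probe gave 1.07 there, or 0.56 without replicate C of Roquin san/+. Isg15, a ubiquitin-like protein attached to others during infection, ran from -0.94 through -0.05 to 0.18 in Roquin san/+ and from -1.15 through -0.96 to 0.18 in wild-type. Its values formed a low and a high set in both genotypes, and the Isg15 difference was 0.35 (SE 0.26, exact permutation p = 0.203). Xaf1, Rtp4 and Parp14 differed by 0.26, 0.27 and 0.27 (exact permutation p from 0.113 to 0.336), and without wild-type replicate C Rtp4 differed by 0.16 and Parp14 by 0.07. Dimmer probes of Xaf1 and Parp14 gave -0.07 and 0.21 on the 12 well-placed arrays. Ifit1 and Ifit2, which bind viral RNA ends, differed by 0.08 and -0.14 on 12 arrays. The sensor Zbp1 was read differently by its probes. With 14 arrays the brighter gave 0.07 (SE 0.30). On the 12 well-placed arrays the brighter gave -0.008 (SE 0.35) and the dimmer 0.53 (SE 0.20, limma adjusted p = 0.647). That dimmer probe too had passed the 14-array filter through Roquin san/+ alone, and gave 0.04 within slide 1 and 0.87 within slide 2.

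The receptor chains are the entry points of both pathways. Ifnar1 had one array far above all others: replicate C of Roquin san/+ stood at 4.45, while the rest of Roquin san/+ lay between -0.42 and 0.16 and wild-type between -0.88 and -0.13. The Ifnar1 difference of 0.94 (SE 0.60, limma adjusted p = 0.959; exact permutation p = 0.0111) became 0.28 without replicate C. The other Ifnar1 probes gave 0.45 and 0.15 on 14 arrays and -0.05 on 12. The probe at 0.15 passed the 14-array filter through Roquin san/+ alone, and gave 0.006 on the 12 well-placed arrays. Ifnar2 differed by 0.28 and Ifngr1 by 0.18 (exact permutation p = 0.198 and 0.323), and Ifnar2 by 0.18 without wild-type replicate C. Ifngr1 was highest on replicate F of Roquin san/+, at 1.43, and its difference was 0.04 without that array. Ifngr2 differed by -0.06 (95% interval -0.51 to 0.38), and the sign turned to 0.04 on the 12 well-placed arrays.

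The type I-type values were split by slide. Their mean deviation per array, taken over the 22 genes tested with 14 arrays, was 0.33 and 0.15 on the wild-type arrays of slide 1 and -0.47 to 0.09 on those of slide 2. The Roquin san/+ arrays ran from -0.21 to 0.30 on slide 1 and stood at 0.33 and 0.19 on slide 2. Within slide 1, 6 of 22 type I-type genes were higher in Roquin san/+, with a median difference of -0.22, and within slide 2, 20 of 22 were, with a median of 0.58. Over all probes the medians were -0.03 and 0.01. A genotype by slide term in limma, added after seeing the data, had an unadjusted p below 0.05 for 13 of 51 interferon probes (25.5%), against 7.6% of all probes, and no adjusted p below 0.05, the lowest among interferon probes being 0.622. The 10 genes with such a p by their brightest probe were all of the type I kind, among them Usp18, Bst2, Rtp4, Irf7, Ifit3 and Oas2. Oas2, another maker of oligoadenylates, differed by -1.34 within slide 1 and by 0.72 within slide 2. Usp18, which shuts down type I signalling, differed by -0.59 and 0.57. Each slide held only 2 arrays of 1 genotype, so slide and single mice cannot be told apart here.

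**Figure D3:**
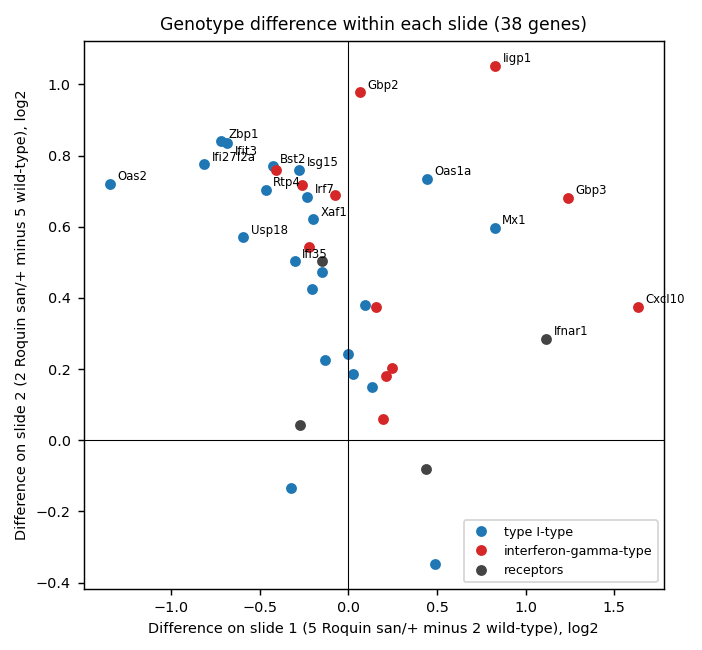
Difference in log2 level, Roquin san/+ minus wild-type, within slide 1 (x axis) and within slide 2 (y axis) for the 38 interferon genes tested with 14 arrays. Type I-type genes gather at the upper left, with 6 of 22 above 0 on slide 1 and 20 of 22 on slide 2, while Gbp3, Iigp1 and Mx1 lie above 0 on both.

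The interferon-gamma-type differences were also larger within slide 2, and whether the 2 kinds of gene differ in this was not tested. With 14 arrays, within slide 1, 8 of 12 were higher in Roquin san/+, with a median of 0.18, and within slide 2 all 12 were, with a median of 0.61, and none had an unadjusted p below 0.05 for the genotype by slide term. On the 12 well-placed arrays 8 of 13 were higher within slide 1, with a median of 0.029, and 13 of 13 within slide 2, with a median of 0.72. Wild-type replicate C was the lowest of the 14 arrays for 11 of the 12 genes, with a mean deviation of -1.19, and replicate G of Roquin san/+ was the highest for 6, at 0.80. Wild-type replicate C was also the lowest array for 11 of 22 type I-type genes. On the same array the 4 T-cell markers deviated by -0.86, and their part in the result was not tested. The interferon-gamma-type median was 0.36 with 14 arrays and 0.19 without that array.

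**Figure D4:**
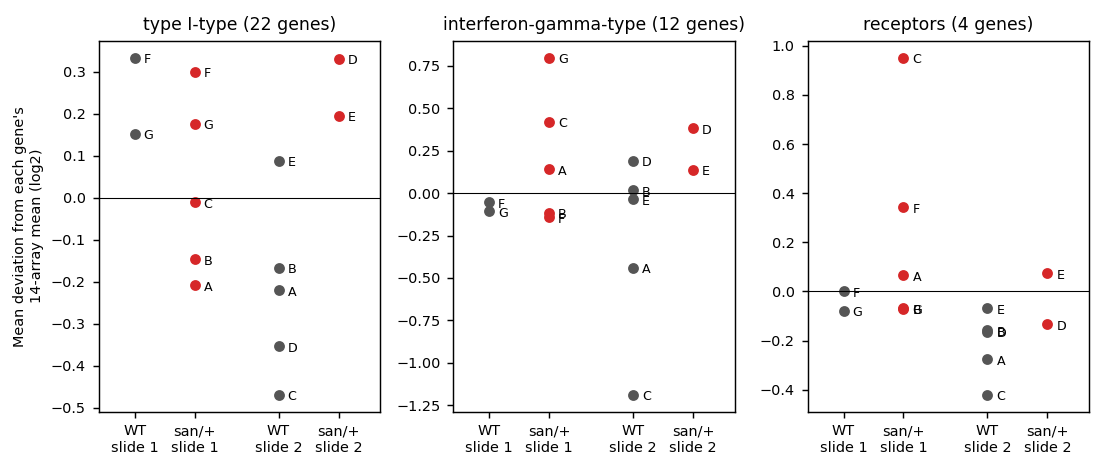
Mean log2 deviation (y axis) of the type I-type, interferon-gamma-type and receptor genes on each of the 14 arrays, by genotype and slide (x axis), with letters for the replicate. Wild-type replicate C stands lowest in the interferon-gamma-type panel at -1.19, and wild-type replicates F and G lie above 0 in the type I-type panel.

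**Figure D5:**
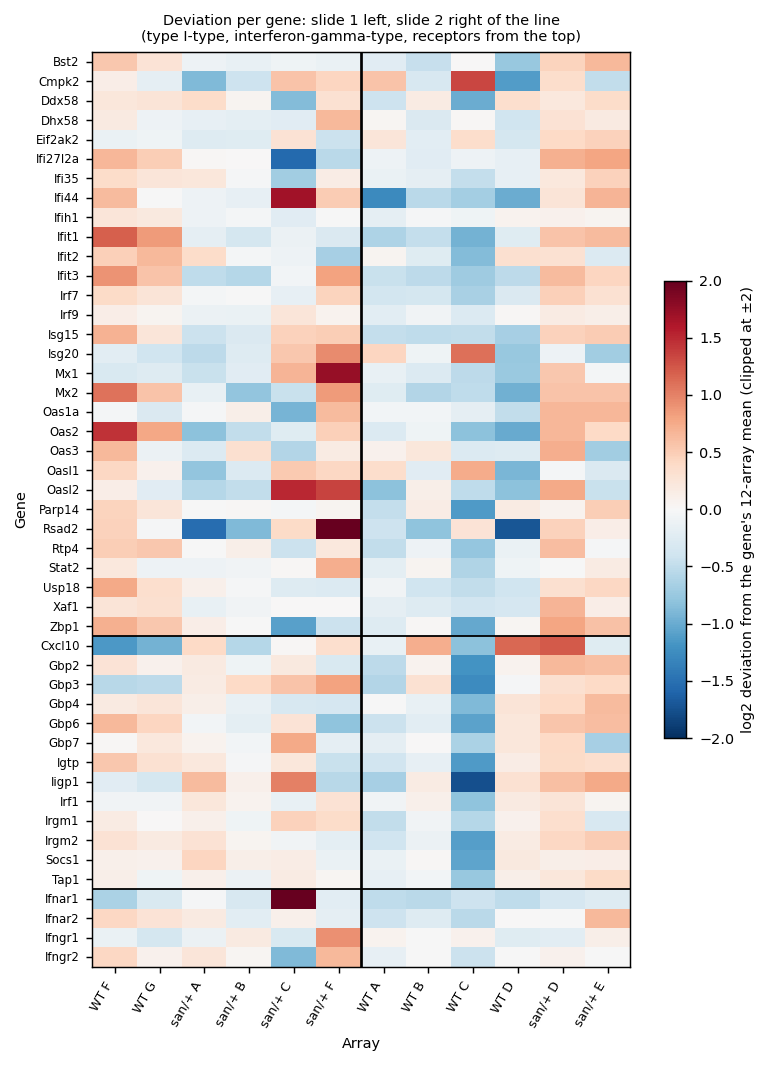
Log2 deviation of each of the 47 genes (rows) from its mean over the 12 well-placed arrays (columns, slide 1 left of the line). Wild-type replicate C is low in most interferon-gamma-type genes, and Ifnar1 is high in replicate C of Roquin san/+ alone.

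Myeloid and B-cell markers leaned toward Roquin san/+ without passing the test, and the part of other cells in the results was not tested. On 12 arrays all 8 myeloid markers were higher in Roquin san/+, with a median difference of 1.09, and so were all 4 tested B-cell markers, with a median of 0.99. The lowest limma adjusted p among them was 0.647. Without replicate F of Roquin san/+ the medians were 0.41 and 0.23. All 4 plasma cell markers were higher on 12 arrays, with a median of 0.55. Of 3 tested NK markers 1 was lower, as was 1 of 3 plasmacytoid dendritic markers. The tested CD8 T-cell and erythroid markers differed by 0.54 and 0.08, or by -0.10 and -0.69 without replicate F of Roquin san/+. The mean myeloid difference was 2.30 within slide 1 and 0.13 within slide 2, and the mean B-cell difference 2.86 and -0.84. None of the 4 T-cell markers was higher, with a median of -0.16, but without replicate F of Roquin san/+ 3 were, with a median of 0.03. The mean deviation of the myeloid markers ran from -0.55 to 3.25 in Roquin san/+ and from -1.57 to 1.003 in wild-type, with replicate F of Roquin san/+ the highest. That of the B-cell markers ran from -1.49 to 4.32 and from -1.93 to 2.34. Cd79a and Blk, the B-cell markers not tested, were not well above background on every array of either genotype. Without replicate F of Roquin san/+ the Gbp3 difference was 0.96 and the Iigp1 difference 1.11 with 14 arrays, against 0.999 and 0.93 with it.

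The rest of the pathway was sought in 43 further genes and 8 ligands, not all of them on the array. Of 14 signalling genes all were tested, and 9 were higher with 14 arrays, with a median of 0.12, against 7 with 12 arrays, with a median of 0.0034. Stat3, a factor that many cytokine receptors activate, differed by 0.38 (SE 0.17, exact permutation p = 0.0443). Of 29 further responders 22 were tested with 14 arrays and 21 were higher, with a median of 0.29, against 49.6% of all probes. On 12 arrays 22 of 26 were higher, with a median of 0.20, against 54.3% of all probes. Wild-type replicate C was the lowest array for 17 of the 22 and for 19 of the 26, and its part in these counts was not tested. Trim30a was the 1 responder of 26 with an unadjusted limma p below 0.05 on 12 arrays, against 5.8% of all probes higher at that p. The lowest limma adjusted p among the responders was 0.647. With 14 arrays the Trim30a probes gave 0.47, 0.37 and 0.14.

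Of the 8 ligands 7 were on the array, and only Ifng was tested with 14 arrays, against 3 ligands with 12. Ifna2, Ifna4, Ifnb1, Ifnk and Ifnl2 were tested in neither fit. Ifng ran from -3.92 through -2.66 to -1.19 in Roquin san/+ and from -4.01 through -2.86 to -2.46 in wild-type. The highest value again lay on replicate G of Roquin san/+, and the Ifng difference of 0.47 (SE 0.34, exact permutation p = 0.263) was 0.22 without it. Ifnl3, a type III interferon, was dim and ran from -4.62 to -2.53 in Roquin san/+ and from -5.27 to -4.71 in wild-type on the 12 well-placed arrays. Its ranges did not overlap, as was true in this direction of 0.728% of all probes, and its difference was 1.09 (SE 0.36, limma adjusted p = 0.647). It was 1.66 within slide 1 and 0.35 within slide 2.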

How the data were processed

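The authors deposited the scanner's spot intensities of 14 one-colour Agilent arrays, extracted with Agilent Feature Extraction 10.5.1.1 per the labels' processing notes, with a background-subtracted processed intensity. A second deposited table holds log2 values per array; how it was made is not given in the sources used here. The paper given with the series does not describe these samples. Spots were compared with the median array over 169 shifts per array, and 2 arrays were moved by 2 rows, which left 296 and 307 probes without a value there. Control spots and outlier flags were left out, spots of a probe were averaged as log2, and each array's 75th percentile over probes detected on all arrays used was subtracted (10320 probes for 14 arrays, 24219 for 12). A probe entered the test if every array of 1 genotype or the other called it well above background. Tests used lmFit and eBayes of limma 3.58.1 (R 4.3.3) with Benjamini-Hochberg adjustment over all probes tested. Alternatives were normexp with offset 50, quantile scaling, scaling on all probes, other filters, slide or replicate letter as a block, single slides, the deposited probe names, the authors' log2 table, means over probes, a trended robust variance and leaving out arrays. The fit was tested on simulated data. Single genes also had a two-sided exact permutation test. Genes, lists and tests were chosen with earlier results of these data known. Genes named with values were the 8 type I-type and 5 interferon-gamma-type members with the lowest limma p, the 4 receptors, Irf1, Irf7, Irf9, Stat2 and Cxcl10, 5 members tested on 12 arrays alone, and further pathway genes with an unadjusted p below 0.05 beside Ifng. Some items are not reported here. Other genes were named after their values were seen. The number of arrays limits the precision. The p-values measure the spread between these arrays, 1 per mouse, in which mouse, slide and array are mixed. Arrays sharing a replicate letter were not paired by the labels, and their deviations correlated at -0.47 to 0.41.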

Additional observations from a re-analysis of the deposited data

Results flagged for a closer look

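Dixon's ratio was computed in 52 groups of 6 or 7 arrays, and 4 groups held 1 array far from the rest, where chance gives about 1 in 20. Replicate C of Roquin san/+ stood at 4.45 for Ifnar1, with its genotype otherwise between -0.42 and 0.16. Replicate F of Roquin san/+ stood at -0.39 for Stat2, against -1.28 to -0.94, and at 1.43 for Ifngr1, against 0.25 to 0.65. Wild-type replicate C stood at 2.48 for Irf1, with its genotype otherwise between 3.22 and 3.47.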

How the results depend on the processing

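No interferon gene had an adjusted p below 0.05 under any alternative run, and the lowest adjusted p of a named gene was 0.406. Of 615 combinations of a named gene and an alternative, 600 kept their direction. Within slide 1 the type I-type median was -0.23 (14 arrays) and -0.33 (12 arrays), and Irf7 (-0.24), Xaf1 (-0.21), Isg15 (-0.29), Rtp4 (-0.48), Parp14 (-0.16), Ifnar2 (-0.16) and Mx2 (-0.97) turned sign. Within slide 2 the type I-type median was 0.58 and 0.69, the interferon-gamma-type median on 12 arrays 0.72, and Ifngr1 (-0.084) and Ifngr2 (0.041) turned sign. Counts at an unadjusted p below 0.05 are a description only here, since the share of all probes is not given beside them. Within slide 2, which held 2 Roquin san/+ arrays, 6 genes had such a p with its moved wild-type array and 17 without it. With both slides 4 genes had. Ifngr2 was also positive without both displaced arrays (0.038) and ran from -0.18 to 0.046 when single arrays were left out. With slide as a block 2 genes had such a p on 12 arrays, and with single arrays left out 2 to 6. With the deposited probe names 0 of 14 tested genes had, and the receptor median was 0.70. Scaling on all probes moved the median of all probes from 0.00 to -0.17, the type I-type median to -0.03 with 10 of 22 higher, and Irf9 to -0.034. With no filter on dim probes (14 arrays) the median of all probes was 0.40. It lay above the type I-type (0.14), interferon-gamma-type (0.36) and receptor (0.23) medians. In the fit of slide 1 alone it was 0.18, against 0.18 for interferon-gamma-type genes and 0.13 for receptors. In the fit of slide 2 alone it was -0.09, below the median of each list. Rsad2 was -0.079 without replicates C and F of Roquin san/+. With the replicate letter as a block (replicate block) the medians stayed at 0.15 and 0.36 and the count of genes with an unadjusted p below 0.05 at 4, and no call changed. Alternatives on 12 arrays other than slide as a block, replicate F of Roquin san/+, normexp and no filter were chosen after seeing the data, as was leaving out replicates C and F of Roquin san/+. Dim probes and the lost detection calls of the moved arrays limit what the 14-array fit can test.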
